A study of Mus musculus with 10 samples.

Results

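The secreted WNT antagonists examined here are 10 genes of the DKK, SFRP, WIF1 and sclerostin families, chosen by gene symbol from the 25239 symbols of the deposited count table: Dkk1, Dkk2, Dkk3, Sfrp1, Sfrp2, Sfrp4, Frzb, Wif1, Sostdc1 and Sost. All 10 have a row and all 10 had enough counts to be tested. They were compared between 2 populations of calvarial stem cells that were sorted by fluorescence from the sutures, the fibrous joints between the flat skull bones, in P7 mice (postnatal day 7). The DDR2-plus group, named for the collagen receptor DDR2, and the PSC group, a name the labels do not expand, had 5 libraries each, numbered 1 to 5. For both groups the labels give the genotype WT, while the protocol names Ctsk-Cre mice, in which the promoter of cathepsin K drives Cre, and 5 animals. Which animal gave which library is not stated, so libraries of the 2 groups may share an animal. The p-values set the group difference against the spread of these libraries within their groups, and treat the libraries as independent. Ddr2 mRNA stood at 112 ± 3.56 CPM in DDR2-plus, against 152 ± 10.7 in PSC, and Ctsk mRNA at 107 ± 15.2 CPM in DDR2-plus, against 294 ± 14.97 in PSC (SD, n = 5 each). With TMM factors, Ddr2 mRNA was thus lower in the group named for it (log2 fold change -0.44, edgeR adjusted p = 0.000165). A transcript is an indirect check of a population named for a protein, and the libraries are called by their labels.

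WNT proteins bind Frizzled receptors and the co-receptors LRP5 and LRP6, and the canonical branch stabilises beta-catenin, which drives osteoblast formation and restrains cartilage formation in skeletal progenitors. Secreted antagonists act outside the cell in different ways. SFRP proteins, FRZB among them, and WIF1 bind WNT ligands, whereas DKK1, DKK2, sclerostin and SOSTDC1 bind the LRP co-receptors. In bone, sclerostin is made chiefly by osteocytes and limits bone formation, and FRZB was first purified from cartilage.

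In DDR2-plus, 8 of the 10 antagonists were lower than in PSC and 2, Frzb and Sostdc1, were higher. All 10 passed the test (edgeR quasi-likelihood test, adjusted p below 0.05 over 15416 genes), against 39.1% of all tested genes, of which 20.1% were higher and 19.0% lower. The median log2 fold change, DDR2-plus over PSC, was -1.26 for the 10 genes and 0.04 for all tested genes. Scaling by library size alone moved the median of all tested genes to 0.31 and split their calls into 5421 higher and 1538 lower, against 3096 higher and 2926 lower with TMM factors. It left 8 antagonists lower and 2 higher, with a median of -0.99. At least 2-fold changes were found for 9 of the 10, against 15.9% of all tested genes, the exception being Dkk3. The libraries of the groups did not overlap for 9 of the 10, against 30.1% of all tested genes, the exception being Sostdc1. Both counts rest on TMM factors. With library size alone, Dkk2 and Sfrp1 also fell short of 2-fold (log2 fold changes of -0.83 and -0.82). Their groups also overlapped with that scaling. DDR2-plus 3 was above PSC 1 for Dkk2, and DDR2-plus 1 above PSC 1 for Sfrp1. Levels are given as CPM, counts per 1000000 library counts after scaling by TMM factors. They come from sorted cells in bulk, so fewer expressing cells and less RNA per cell cannot be told apart.

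**Figure D1:**
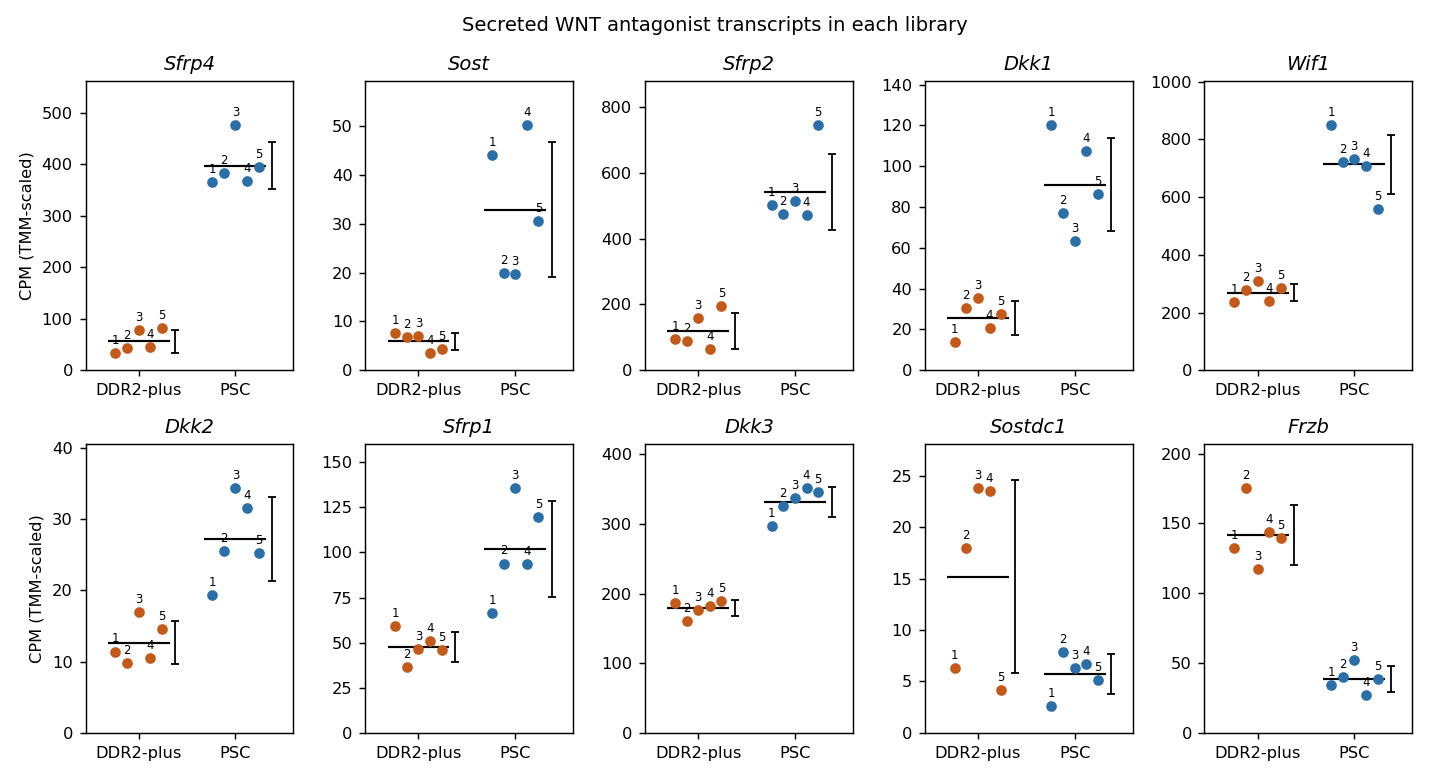
CPM of each antagonist in the 10 libraries, DDR2-plus left and PSC right in each panel, with the library number above each point, the group mean as a line and ± 1 SD as a bar. The panels run by fold change from Sfrp4 to Frzb, and the groups overlap for Sostdc1, where DDR2-plus 1 and 5 lie among the PSC libraries.

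Frzb, also called Sfrp3, encodes a WNT-binding protein of cartilage. It lies on chromosome 2 (80411970 to 80447625, minus strand, mm10). Its level in DDR2-plus 1 to 5 was 132, 175, 117, 144 and 139 CPM, against 34.6, 40.2, 52.4, 27.0 and 38.7 CPM in PSC 1 to 5. The lowest DDR2-plus library was above the highest PSC library. Frzb was 3.67-fold higher in DDR2-plus (log2 fold change 1.88, SE 0.159, edgeR adjusted p = 2.29e-06). Frzb is the one antagonist here with a higher level and no overlap in DDR2-plus, so its promoter is shown beside those of Sfrp2, which fell strongly, and Dkk1, the antagonist whose promoter held matches to a searched motif. The windows are RefSeq's for GRCm38.p6, from 250 bases before to 50 bases after the RefSeq start site, on the strand of the gene. The gene positions given here are GENCODE's, which start further upstream for Frzb and Dkk1. Part of what counts as upstream in those 2 windows therefore lies inside the gene as GENCODE places it.
Frzb promoter, chr2:80447347-80447646, minus strand: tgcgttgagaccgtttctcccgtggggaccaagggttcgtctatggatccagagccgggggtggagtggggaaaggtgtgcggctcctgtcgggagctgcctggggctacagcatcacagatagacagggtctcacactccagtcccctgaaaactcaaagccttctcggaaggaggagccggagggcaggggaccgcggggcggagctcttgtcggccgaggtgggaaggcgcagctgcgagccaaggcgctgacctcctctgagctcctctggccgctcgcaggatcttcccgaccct
Sfrp2 promoter, chr3:83766071-83766370, plus strand: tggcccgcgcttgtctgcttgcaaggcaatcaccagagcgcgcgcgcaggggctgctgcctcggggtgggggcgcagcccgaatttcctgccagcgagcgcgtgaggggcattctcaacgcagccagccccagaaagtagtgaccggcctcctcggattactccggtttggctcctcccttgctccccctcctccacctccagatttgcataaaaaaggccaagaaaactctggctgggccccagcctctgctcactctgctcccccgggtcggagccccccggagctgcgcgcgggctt
Dkk1 promoter, chr19:30549447-30549746, minus strand: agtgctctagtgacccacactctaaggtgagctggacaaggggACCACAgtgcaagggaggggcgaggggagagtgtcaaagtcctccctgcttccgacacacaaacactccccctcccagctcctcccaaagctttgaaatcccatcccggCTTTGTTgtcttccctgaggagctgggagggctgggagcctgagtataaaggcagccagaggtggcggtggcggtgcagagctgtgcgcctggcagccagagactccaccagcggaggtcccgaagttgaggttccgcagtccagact
Capitals mark matches to CTTTGNT, a core of TCF and LEF sites, or TGTGGT, a core of RUNX sites, searched on both strands, which share no overlapping letters in this window. The Dkk1 window holds CTTTGNT on its own strand, 98 to 92 bases before the RefSeq start site, and TGTGGT on the opposite strand, 207 to 202 bases before it. CTTTGNT occurred in 18.6% and TGTGGT in 16.8% of the 32851 promoters of the table. The table had windows for 6 of the 10 antagonists, and those of Frzb, Sfrp2, Dkk2, Wif1 and Sost held no match to either motif. Promoters of Dkk3, Sfrp1, Sfrp4 and Sostdc1 were not analysed here. All 6 windows were richer in G and C than the median promoter, at 57.7% for Dkk2 to 66.0% for Sfrp2, against 52.7% over the table.

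The other SFRP genes were lower in DDR2-plus. Sfrp4 (chromosome 13, 19623104 to 19632994, plus strand) encodes a WNT-binding protein whose loss in humans causes Pyle disease, with thin cortical bone. It stood at 33.8, 42.96, 77.5, 44.7 and 82.4 CPM in DDR2-plus 1 to 5 and at 365, 383, 476, 367 and 394 CPM in PSC 1 to 5. Every PSC library was above every DDR2-plus library, and within DDR2-plus numbers 3 and 5 were the highest. Its change, -2.82 on the log2 scale (SE 0.23, edgeR adjusted p = 1.78e-06), was the largest in size among the 10 antagonists. Sfrp2 (chromosome 3, 83766321 to 83774316, plus strand) encodes a WNT-binding protein of mesenchymal cells. Its level was 93.4, 87.8, 159, 64.6 and 196 CPM in DDR2-plus 1 to 5, against 502, 476, 515, 473 and 745 CPM in PSC 1 to 5. Numbers 3 and 5 were again the highest within DDR2-plus, and PSC 5 stood above the other PSC libraries. Sfrp2 was 4.51-fold lower in DDR2-plus (log2 fold change -2.17, SE 0.272, edgeR adjusted p = 4.67e-05). Of the exonic bases of Sfrp2, 16.1% are shared with the annotated gene Gm26771, and how the authors' counting treated these bases is not given in the sources used here. Sfrp1 (chromosome 8, 23411502 to 23449632, plus strand), whose protein binds WNT ligands, stood at 59.1, 36.4, 46.5, 51.0 and 45.7 CPM in DDR2-plus 1 to 5 and at 66.2, 93.8, 136, 93.7 and 119.5 CPM in PSC 1 to 5. The gap between the groups was small, with DDR2-plus 1 just below PSC 1. Sfrp1 was 2.13-fold lower in DDR2-plus (edgeR adjusted p = 0.000356).

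Wif1 (chromosome 10, 121033960 to 121100650, plus strand) encodes WNT inhibitory factor 1, which binds WNT ligands. It stood at 235, 278, 307, 239.9 and 284 CPM in DDR2-plus 1 to 5 and at 849, 721, 730.4, 708 and 560.1 CPM in PSC 1 to 5. Even PSC 5, the lowest of its group, lay above every DDR2-plus library. Wif1 was 2.65-fold lower in DDR2-plus (log2 fold change -1.41, SE 0.11, edgeR adjusted p = 1.39e-06).

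All 3 DKK genes were lower in DDR2-plus. Dkk1 (chromosome 19, 30545863 to 30549665, minus strand) encodes the classical DKK antagonist, which holds LRP5 and LRP6 together with Kremen proteins. Its level was 13.6, 30.7, 35.2, 20.7 and 27.8 CPM in DDR2-plus 1 to 5 and 120.1, 76.9, 63.5, 107 and 86.5 CPM in PSC 1 to 5. The groups did not overlap, and each spanned a wide range, 2.59-fold in DDR2-plus and 1.89-fold in PSC. Dkk1 was 3.55-fold lower in DDR2-plus (log2 fold change -1.83, SE 0.242, edgeR adjusted p = 7.15e-05). Dkk2 (chromosome 3, 132085292 to 132180304, plus strand), whose protein also binds LRP6, stood at 11.4, 9.84, 16.9, 10.5 and 14.6 CPM in DDR2-plus 1 to 5 and at 19.3, 25.5, 34.4, 31.5 and 25.3 CPM in PSC 1 to 5. DDR2-plus 3, the highest of its group, was just below PSC 1, the lowest of the other. Dkk2 was 2.15-fold lower in DDR2-plus (edgeR adjusted p = 0.000495). Dkk3 (chromosome 7, 112116017 to 112159057, minus strand) encodes the divergent member of the family. It stood at 187, 161, 176, 183 and 189 CPM in DDR2-plus 1 to 5 and at 297, 326, 337, 352 and 345 CPM in PSC 1 to 5. It had the narrowest spread of the 10 antagonists in both groups, with a coefficient of variation of 6.38% in DDR2-plus and 6.49% in PSC. Its change was the smallest in size, 1.85-fold lower in DDR2-plus (log2 fold change -0.89, SE 0.0697, edgeR adjusted p = 1.39e-06).

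The sclerostin family went both ways. Sost (chromosome 11, 101962458 to 101967015, minus strand), which encodes sclerostin, stood at 7.71, 6.73, 7.09, 3.50 and 4.43 CPM in DDR2-plus 1 to 5 and at 44.0, 19.9, 19.8, 50.2 and 30.5 CPM in PSC 1 to 5. PSC 1 and 4 were high within their group, and PSC 2 and 3 were still above every DDR2-plus library. Sost was 5.59-fold lower in DDR2-plus (log2 fold change -2.48, SE 0.308, edgeR adjusted p = 4.42e-05). Sostdc1 (chromosome 12, 36314139 to 36318452, plus strand) encodes a relative of sclerostin that binds BMP proteins as well as LRP co-receptors. It stood at 6.34, 17.98, 23.8, 23.5 and 4.13 CPM in DDR2-plus 1 to 5 and at 2.60, 7.81, 6.30, 6.69 and 5.18 CPM in PSC 1 to 5. DDR2-plus 2, 3 and 4 lay above all PSC libraries, while DDR2-plus 1 and 5 lay within the PSC range. Sostdc1 passed as 2.65-fold higher in DDR2-plus (log2 fold change 1.41, SE 0.46, edgeR adjusted p = 0.028). This call was lost in limma-voom (adjusted p = 0.112) and, in edgeR, without DDR2-plus 2, 3 or 4 (adjusted p of 0.0588, 0.0751 and 0.0775) and without PSC 1 or 5 (adjusted p of 0.0589 and 0.0553), the range over 18 alternative settings being 0.00399 to 0.112.

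**Figure D2:**
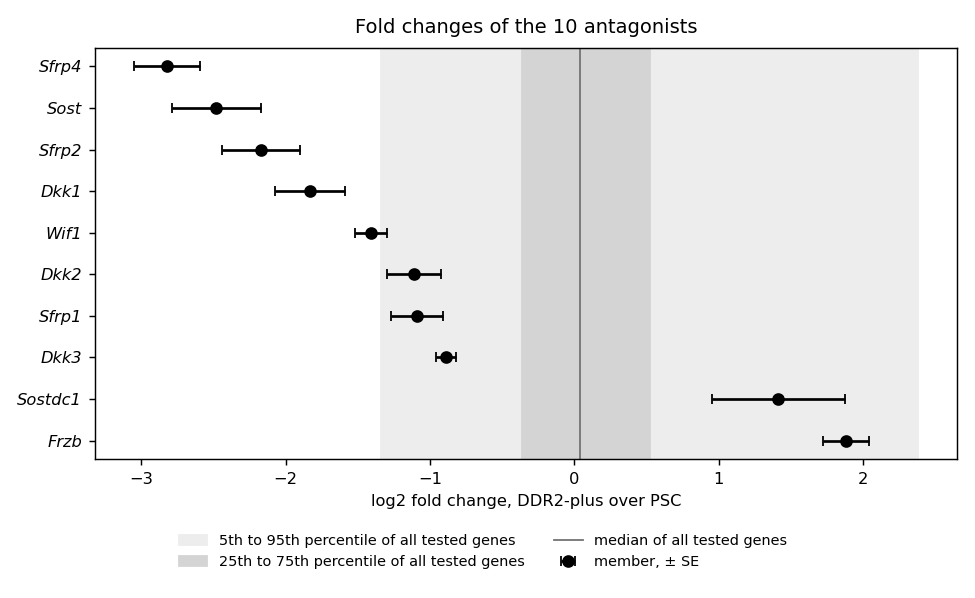
Log2 fold change of each antagonist, DDR2-plus over PSC, as points with ± 1 SE, over grey bands for the percentiles of all tested genes. The 5th and 95th percentiles of all tested genes are -1.34 and 2.38. Sfrp4, Sost, Sfrp2, Dkk1 and Wif1 lie below that range, and Frzb and Sostdc1 lie inside it.

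Levels of different antagonists were compared as CPM per kilobase of exon. In DDR2-plus the order was Wif1 at 111 ± 12.6, Sfrp2 at 55.8 ± 25.5, Dkk3 at 53.3 ± 3.40, Frzb at 43.7 ± 6.61, Sfrp4 at 13.5 ± 5.28, Sfrp1 at 10.9 ± 1.89, Dkk1 at 10.5 ± 3.51, Sostdc1 at 8.51 ± 5.26, Dkk2 at 3.41 ± 0.808 and Sost at 2.85 ± 0.882 CPM per kilobase (SD, n = 5). In PSC it was Wif1 at 294 ± 42.4, Sfrp2 at 252 ± 53.4, Dkk3 at 98.6 ± 6.40, Sfrp4 at 95.01 ± 10.9, Dkk1 at 37.4 ± 9.41, Sfrp1 at 23.3 ± 6.12, Sost at 15.9 ± 6.71, Frzb at 11.9 ± 2.86, Dkk2 at 7.34 ± 1.59 and Sostdc1 at 3.21 ± 1.11 CPM per kilobase (SD, n = 5). Wif1, Sfrp2 and Dkk3 held the first places in both groups. Frzb held rank 4 in DDR2-plus and rank 8 in PSC, and Sfrp4 rank 5 in DDR2-plus and rank 4 in PSC. Between neighbours in the DDR2-plus order, the libraries did not overlap for Wif1 and Sfrp2 or for Frzb and Sfrp4, and overlapped for every other pair of neighbours. In the PSC order they did not overlap for Sfrp2 and Dkk3, for Sfrp4 and Dkk1 or for Dkk2 and Sostdc1, and overlapped for the rest.

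Added over the 10 genes, antagonist transcripts came to 313 ± 40.5 CPM per kilobase in DDR2-plus and 839 ± 33.7 in PSC (SD, n = 5 each). The library sums ran from 274 to 357 in DDR2-plus, against 793 to 874 in PSC. The make-up of this sum does not depend on the scaling of the library. Wif1 made up 35.4% ± 1.73 of it in DDR2-plus and 35.1% ± 5.28 in PSC, with PSC 5 at 26.4% and PSC 1 at 40.6%, so the ranges overlapped. Frzb made up 14.2% ± 3.06 in DDR2-plus and 1.42% ± 0.334 in PSC. Dkk3 made up 17.2% ± 2.54 in DDR2-plus and 11.8% ± 0.960 in PSC, although its own level was lower in DDR2-plus. Sfrp2 made up 17.3% ± 5.87 in DDR2-plus and 29.9% ± 5.45 in PSC, and Sfrp4 4.19% ± 1.14 in DDR2-plus and 11.3% ± 1.25 in PSC. The remaining 5 genes each made up less than 6% in every library. Per kilobase, Frzb transcripts were 1.95 to 5.27 times as many as those of Sfrp4 in DDR2-plus, against 0.0950 to 0.142 times in PSC. Sostdc1 was between 0.955 and 7.79 times Sost in DDR2-plus and between 0.0685 and 0.454 times in PSC.

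**Figure D3:**
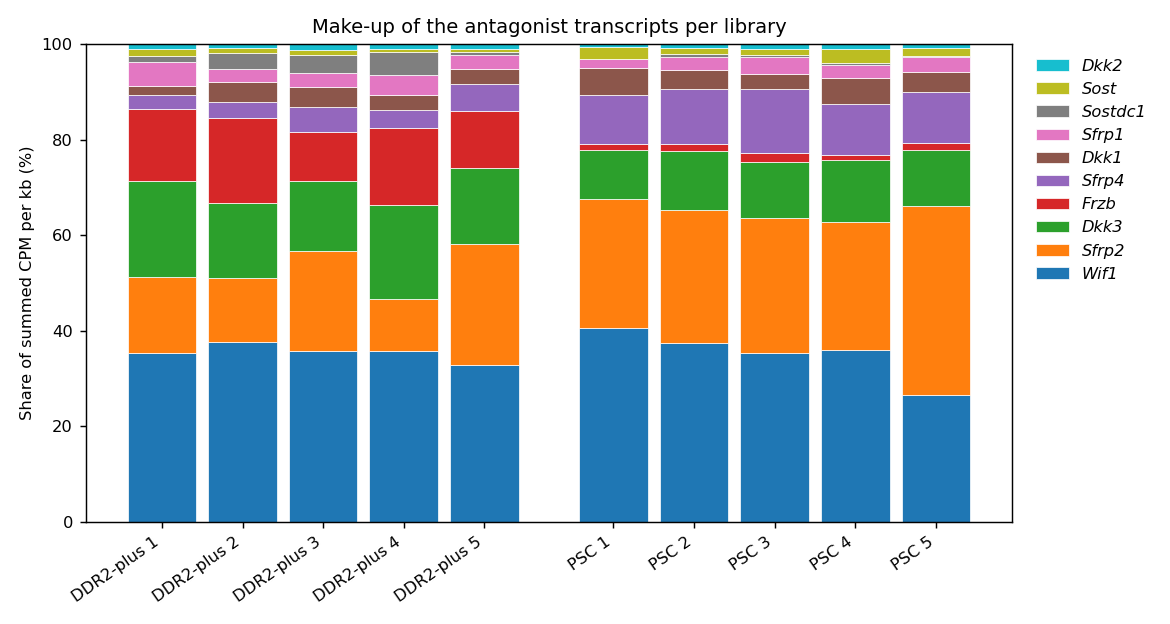
Share of each antagonist in the summed CPM per kilobase of the 10 genes, one bar per library, DDR2-plus left and PSC right. Wif1 takes 32.8% to 37.6% in DDR2-plus and 26.4% to 40.6% in PSC, while Frzb takes 10.2% to 17.8% in DDR2-plus and 1.02% to 1.90% in PSC.

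Marker lists of skeletal cell types also differed between the groups, and their part in the antagonist results was not tested. Over all tested genes, 20.1% were higher and 19.0% lower in DDR2-plus. All 17 chondrocyte markers were higher in DDR2-plus, and the summed list ran from 113969 to 155265 CPM in DDR2-plus, against 16667 to 36147 in PSC. Of 12 fibroblast and periosteum markers 11 were lower and 0 higher in DDR2-plus, with sums of 3516 to 5064 CPM in DDR2-plus, against 11288 to 15226 in PSC. Of 13 osteoblast markers 9 were lower and 1 higher, with sums of 67510 to 108610 CPM in DDR2-plus, against 305981 to 337489 in PSC. Of 7 tested osteocyte markers 6 were lower and 1 higher, with sums of 607 to 1327 CPM in DDR2-plus, against 1924 to 3129 in PSC. Of 10 tendon and ligament markers 8 were lower and 2 higher, with a median log2 fold change of -1.88 and no overlap between the groups for any of the 10. Tnmd, the tenomodulin gene, was at 75.9 ± 23.1 CPM in DDR2-plus, against 1451 ± 99.4 in PSC, and Scx, a transcription factor gene of tendon, at 9.66 ± 2.21 CPM in DDR2-plus, against 105 ± 11.6 in PSC. Fmod and Egr1, the higher pair, had the highest levels on the list, whose sums ran from 8095 to 9597 CPM in DDR2-plus, against 10199.7 to 11468 in PSC. Of the 8 osteocyte markers 0 were without a count in either group, but Fgf23 averaged 0.0354 CPM in DDR2-plus, against 0.509 in PSC, and was not tested.

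Within each group, the order of the libraries was set beside these sums as a description of 5 libraries. In PSC, Sost ran in the same order as the osteocyte sum (PSC 4, 1, 5, 2, 3), and Dkk1 in that order with PSC 1 and 4 exchanged. The chondrocyte sum had the identical order in PSC, so the order does not set one list apart from the other there. In DDR2-plus, Dkk1 followed the osteocyte sum with only the numbers 2 and 3 exchanged, whereas Sost did not, being highest in DDR2-plus 1, where the osteocyte sum was lowest. The blood and immune sum ran in exactly the order of Dkk1 in DDR2-plus, so that order is not particular to the osteocyte list. Dmp1, a matrix protein gene of osteocytes, made up between 49.2% and 77.0% of the osteocyte sum. Sfrp2 and Sfrp4 were highest in DDR2-plus 5 and 3, the libraries with the highest fibroblast and periosteum sums (5064 and 4904 CPM, against 3516 to 3879 CPM in the other 3). The epidermis and hair sum had the identical order in DDR2-plus, and the osteoblast sum was also highest in DDR2-plus 3 and 5. The match there thus does not set the fibroblast and periosteum list apart. In PSC the fibroblast and periosteum sum ran PSC 3, 2, 5, 4, 1 from high to low. Sfrp4 followed it there with only the numbers 2 and 5 exchanged, whereas Sfrp2 did not, running PSC 5, 3, 1, 2, 4. Sfrp4 also followed the endothelium sum in PSC, with only the numbers 4 and 5 exchanged. Frzb in PSC ran in the exact reverse of the chondrocyte sum, with PSC 3 highest for Frzb and lowest for the sum, and PSC 4 the other way round. In DDR2-plus, by contrast, Frzb followed the chondrocyte sum with only the numbers 2 and 4 exchanged. Frzb followed the pericyte and smooth muscle sum there as closely, with only the numbers 1 and 3 exchanged. Col2a1, the collagen gene of cartilage, made up between 44.5% and 58.8% of the chondrocyte sum.

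**Figure D4:**
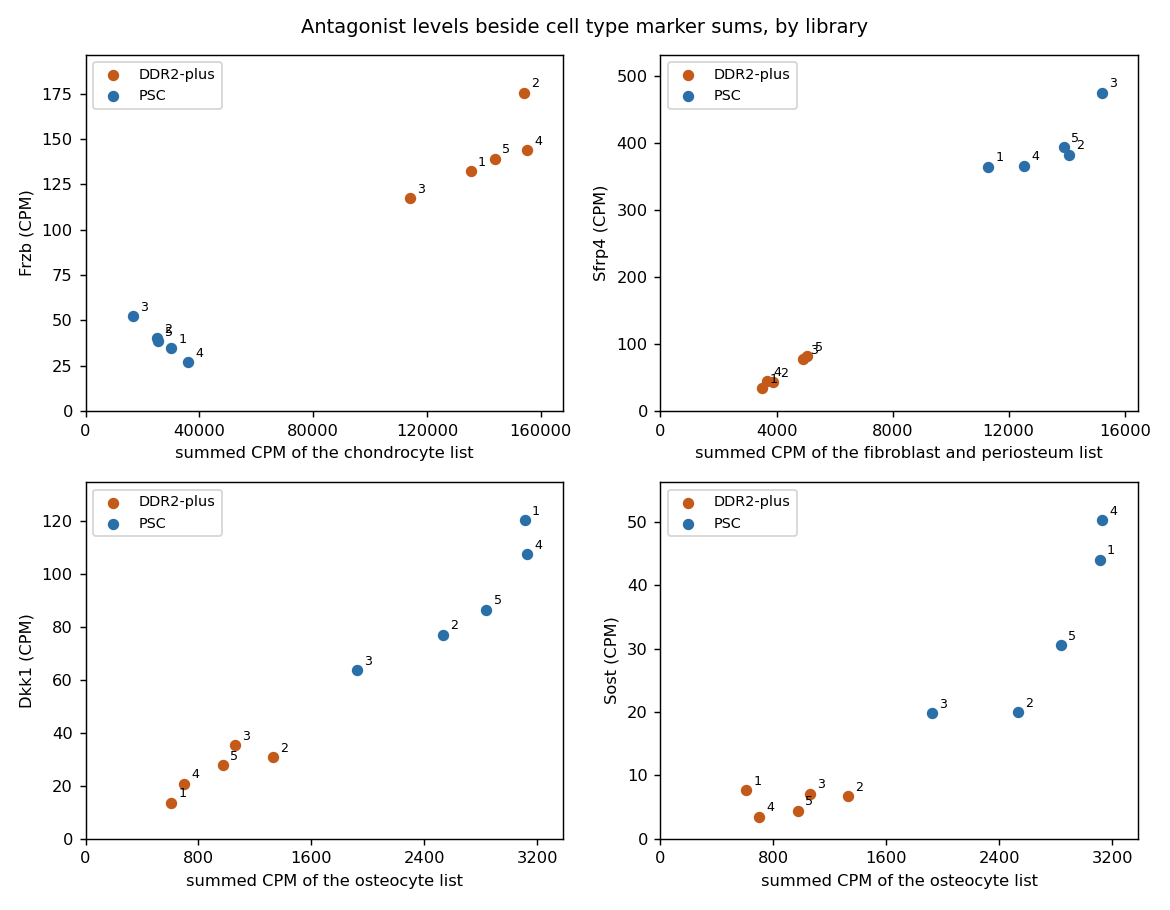
Level of an antagonist in CPM against the summed CPM of a marker list in the same library, with the library number beside each point, for Frzb and chondrocyte markers, Sfrp4 and fibroblast and periosteum markers, and Dkk1 and Sost with osteocyte markers. The 5 DDR2-plus points of Frzb lie at sums of 113969 CPM or more, and its PSC points, at sums of 36147 CPM or less, run downward as the sum grows.

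DDR2-plus libraries also held transcripts of tissues outside the skeleton. The summed pineal and photoreceptor list ran from 182 to 285 CPM in DDR2-plus, against 5.18 to 7.62 in PSC (8 of 9 tested genes higher, 0 lower), and the glia and Schwann cell list from 456 to 954 CPM in DDR2-plus, against 40.7 to 96.6 in PSC (9 of 9 higher). S100b alone made up 25.9% to 89.9% of the glia and Schwann cell sum, depending on the library. The neuron list ran from 66.9 to 185 CPM in DDR2-plus, against 31.2 to 49.1 in PSC (8 of 11 higher, 0 lower). The olfactory list reached 344 CPM in DDR2-plus 5, against 7.09 to 25.1 CPM in the other DDR2-plus libraries and at most 0.778 CPM in PSC. With DDR2-plus 5 left out, 8 of the antagonists were still lower and 2 higher, while of all 15626 tested genes 2722 were lower and 2817 higher. Sostdc1, whose DDR2-plus level varied most, was lowest in DDR2-plus 5 and 1, which were also the libraries with the highest neuron sums (182 and 185 CPM). The olfactory sum was also highest in DDR2-plus 5 and 1, so the match does not set the neuron list apart. The neuron sum was lowest in DDR2-plus 2, whereas Sostdc1 was highest in DDR2-plus 3. Whether these transcripts bear on the antagonist levels was not tested. The sums of the endothelium, blood and immune, skeletal muscle, and pericyte and smooth muscle lists overlapped between the groups. The epidermis and hair sum ran from 29.7 to 56.1 CPM in DDR2-plus, against 16.7 to 23.8 in PSC. The osteoclast sum ran from 552 to 859 CPM in DDR2-plus, against 146 to 386 in PSC, but Mmp9 alone made up 79.8% to 98.2% of it. Of the 2 tested osteoclast markers, Mmp9 was higher (log2 fold change 1.47) and Acp5 lower (log2 fold change -0.90) in DDR2-plus (edgeR adjusted p of 0.000422 and 7.25e-05).

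Further WNT antagonists outside the 10 genes split in direction. Of 6 tested, 3 were higher and 2 lower in DDR2-plus (83.3% called, against 39.1% of all tested genes). Their median log2 fold change was 0.41. Sfrp5, the remaining SFRP gene, stood at 5.84 ± 1.05 CPM in DDR2-plus, against 38.8 ± 16.1 in PSC (SD, n = 5 each; log2 fold change -2.73, edgeR adjusted p = 3.38e-06). Igfbp4, which encodes an IGF-binding protein also reported to bind LRP6, was at 628 ± 177 CPM in DDR2-plus, against 1587 ± 164 in PSC, with a log2 fold change of -1.34. Notum, the gene of the enzyme that removes the lipid of WNT proteins, was at 83.5 ± 4.81 CPM in DDR2-plus, against 45.6 ± 13.7 in PSC (log2 fold change 0.87, edgeR adjusted p = 0.00112). Of its exonic bases, 38.1% overlap other annotated genes, antisense Notumos among them, and the libraries do not mark strand. Tpbg, a membrane inhibitor gene with 23.5% of its exonic bases shared, was at 138 ± 11.6 CPM in DDR2-plus, against 77.7 ± 14.6 in PSC (log2 fold change 0.82). Draxin, better known as an axon guidance gene, was at 10.9, 1.54, 4.71, 6.15 and 0.820 CPM in DDR2-plus 1 to 5 and at most 0.458 CPM in PSC. Its log2 fold change was 4.74 (edgeR adjusted p = 0.00412), 5.41 without PSC 4, and its call was lost in limma-voom (adjusted p = 0.0599). Apcdd1, a membrane inhibitor gene, was at 23.96 ± 4.67 CPM in DDR2-plus, against 24.01 ± 7.16 in PSC without a call. Dkk4, Dkkl1 and Cer1 were too low to be tested, with 4, 148 and 0 counts over the DDR2-plus libraries and 1, 2 and 17 over the PSC libraries. Of the Dkkl1 counts, 110 came from DDR2-plus 5, and all counts of Cer1 came from PSC 3.

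The binding partners of the antagonists were also examined. Lrp5, a WNT co-receptor gene, was at 5.21 ± 0.611 CPM in DDR2-plus, against 15.8 ± 3.18 in PSC (log2 fold change -1.60, edgeR adjusted p = 1.54e-05). Lrp4, whose protein anchors sclerostin in bone, was at 8.77 ± 2.81 CPM in DDR2-plus, against 23.1 ± 5.02 in PSC (log2 fold change -1.40, edgeR adjusted p = 0.000254). Lrp6 was at 98.2 ± 5.57 CPM in DDR2-plus, against 86.4 ± 10.1 in PSC without a call (edgeR adjusted p = 0.115), and passed as higher with library size alone (adjusted p = 0.00102). Kremen1, whose protein binds DKK1, was at 89.8 ± 4.46 CPM in DDR2-plus, against 75.7 ± 7.58 in PSC (log2 fold change 0.25, edgeR adjusted p = 0.0237). That call was lost without DDR2-plus 2 or 5 and without PSC 1, 3 or 5 (adjusted p between 0.0533 and 0.0698). Mesd, a chaperone gene for LRP proteins that shares 23.8% of its exonic bases, was at 87.2 ± 5.39 CPM in DDR2-plus, against 88.8 ± 6.85 in PSC, and Kremen2 had 29 counts over DDR2-plus and 8 over PSC.

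Across the remaining WNT lists, the directions were mixed. Over all the WNT lists outside the 10 antagonists, 23 of 94 tested genes were higher and 29 lower in DDR2-plus. The called share was 55.3%, against 39.1% of all tested genes, and the median log2 fold change was -0.05. With library size alone the counts were 36 higher and 23 lower. Of 19 tested genes of WNT ligands, their processing and R-spondins, 3 were higher and 6 lower (47.4% called). Wnt9a, a ligand gene of joints, was at 9.17 ± 1.57 CPM in DDR2-plus, against 45.6 ± 10.2 in PSC, and Rspo1, which encodes an enhancer of WNT signalling, at 1.97 ± 0.695 CPM in DDR2-plus, against 13.9 ± 5.54 in PSC. Rspo3, of the same family and with 13.1% of its exonic bases shared, was at 43.3 ± 6.33 CPM in DDR2-plus, against 19.1 ± 1.27 in PSC, and Wnt11 at 32.3 ± 3.73 CPM in DDR2-plus, against 20.5 ± 2.80 in PSC (edgeR adjusted p at or below 0.000788 for all 4). Wls, the WNT transporter gene, at 260.1 CPM in DDR2-plus, against 282 in PSC, and Wnt5b, at 55.4 CPM in DDR2-plus, against 50.4 in PSC, had no call, although Wnt5b passed as higher with library size alone (adjusted p = 0.0306).

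Of 19 receptor genes, 4 were higher and 10 lower in DDR2-plus (73.7% called, against 39.1% of all tested genes). Fzd9 was at 270.1 ± 41.1 CPM in DDR2-plus, against 85.4 ± 23.6 in PSC (log2 fold change 1.66), and Lgr4, a receptor gene for R-spondins, at 121 ± 16.5 CPM in DDR2-plus, against 65.3 ± 12.5 in PSC (log2 fold change 0.89). Fzd2 was at 43.5 ± 5.82 CPM in DDR2-plus, against 79.6 ± 4.42 in PSC (log2 fold change -0.87), and Ror1, a receptor gene of the branch without beta-catenin, at 8.55 ± 1.09 CPM in DDR2-plus, against 19.99 ± 4.34 in PSC (log2 fold change -1.22; edgeR adjusted p at or below 0.000195 for all 4). Ptk7, at 107 CPM in DDR2-plus, against 99.9 in PSC, and Fzd7, at 45.1 CPM in DDR2-plus, against 46.4 in PSC, had no call, although Ptk7 passed as higher with library size alone (adjusted p = 0.0176).

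Of 22 genes of the intracellular relay, 2 were higher, 5 lower and 15 without a call. The called share, 31.8%, was below the 39.1% of all tested genes. Lef1 (log2 fold change 0.90) and Tle4 (1.13), of the TCF and LEF factors and their co-repressors, were higher, and Tcf7 (-0.63) and Tle3 (-0.62) were lower in DDR2-plus (edgeR adjusted p of 0.00243 or less). Lef1 shares 13.8% of its exonic bases with another gene. Ctnnb1, which encodes beta-catenin and shares 15.1% of its exonic bases, was at 671 ± 41.9 CPM in DDR2-plus, against 696 ± 57.5 in PSC, while the kinase gene Csnk1a1 was at 249.6 ± 11.7 CPM in DDR2-plus, against 233 ± 8.12 in PSC. Both were without a call, and both passed as higher with library size alone (adjusted p of 0.029 and 0.000323).

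Of 18 feedback and target genes, 7 were higher and 6 lower in DDR2-plus (72.2% called, against 39.1% of all tested genes). Nkd2, a feedback inhibitor gene, was at 4.96 ± 1.53 CPM in DDR2-plus, against 42.5 ± 6.74 in PSC, Ccn4 at 114 ± 23.0 CPM in DDR2-plus, against 338 ± 15.5 in PSC, Cd44, an adhesion receptor gene, at 40.0 ± 13.2 CPM in DDR2-plus, against 181 ± 15.2 in PSC, and Tnfrsf19 at 47.7 ± 13.8 CPM in DDR2-plus, against 120.0 ± 8.65 in PSC (edgeR adjusted p at or below 3.05e-05 for all 4). Axin2, the target gene most often used to read canonical signalling, was at 5.56 ± 0.879 CPM in DDR2-plus, against 2.71 ± 0.760 in PSC (log2 fold change 1.04, edgeR adjusted p = 0.00975), a gene named here after its values were seen. Cemip, at 17.7 CPM in DDR2-plus, against 14.4 in PSC, had no call and passed as higher with library size alone (adjusted p = 0.00979). Of 14 genes of the branch without beta-catenin and of planar polarity, 5 were higher and 2 lower (50.0% called). Prickle1 (log2 fold change 0.52) and Nfatc1 (0.73) were higher, Ror2 (-0.56) was lower, and Rock1 and Rock2 had no call.

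**Figure D5:**
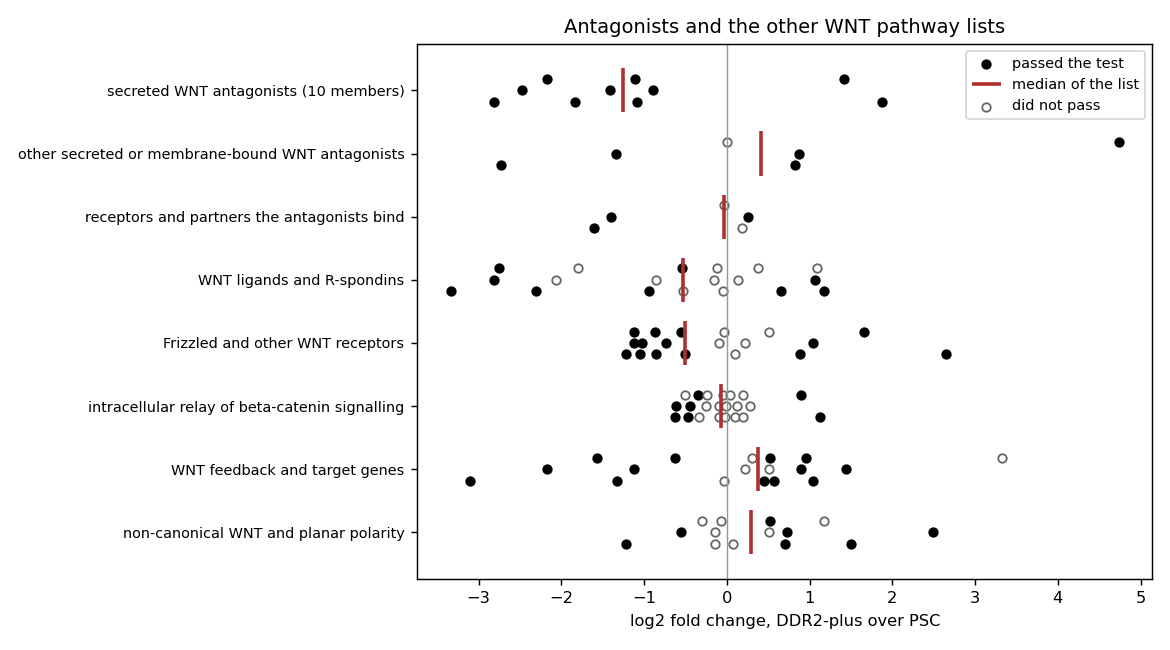
Log2 fold change, DDR2-plus over PSC, of every tested gene of the 10 antagonists and of 7 other WNT lists, with filled points for genes past the test, open points for the rest and a red bar for the median of each list. The antagonist median is -1.26, and the medians of the other lists lie between -0.53 and 0.41.

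Genes with profiles most like each antagonist were found as the root mean square difference of centred log2 CPM over the 10 libraries, among 9209 genes with at least 10 CPM in the higher group. The group difference is part of this measure, so genes with a like fold change come out near. Dkk1 was nearest to Dmp1 (difference 0.209), which was at 541 ± 213 CPM in DDR2-plus, against 2016 ± 418 in PSC. Lipc (0.232) and Smagp (0.236), which are not on the osteocyte list, were nearly as close to Dkk1. Sfrp4 was nearest to Igfbp6 (0.167), Aspn (0.185) and Postn (0.207), genes of an IGF-binding protein and of the matrix proteins asporin and periostin. Aspn and Postn are also on the fibroblast and periosteum list, as Dmp1 is on the osteocyte list. Sfrp2 was nearest to Serping1 (0.20), Hic1 (0.21) and C1qtnf2 (0.232). Wif1 was nearest to Kalrn (0.103), Vdr, the vitamin D receptor gene (0.119), and Tnc, the tenascin C gene (0.122), which is on the tendon and ligament list. Dkk3 had the closest neighbours, Ccdc71 (0.0815) and Ncald (0.0848), and shared Glt8d2 with Sfrp1, at 0.103 from Dkk3 and 0.171 from Sfrp1. Sfrp1 was nearest to Dpysl2 (0.152), and Dkk2 to Wipf1 (0.138). Frzb was nearest to Mtmr12 (0.239), Acly (0.249) and Arhgef5 (0.252). Sost, with Gpha2 (0.352), and Sostdc1, with Trpm3 (0.605), had the most distant nearest genes.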

How the data were processed

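RNA was measured in 5 DDR2-plus and 5 PSC libraries. Per the labels' protocols, cDNA was amplified from 1 ng of total RNA with a template-switching kit, and a tagmentation kit turned it into libraries without marking strand. Per the submitters' processing notes, the build was mm10 and DESeq was used. Which aligner, counter and annotation were used is not given in the sources used here. In the deposited table, the authors give raw counts, 1 row for each symbol. Library totals ranged from 43419129 to 62021992, so 1 count was worth 0.0146 to 0.0249 CPM. Reads of amplified cDNA are not independent molecules.

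Differences were tested with edgeR 4.0.16 (R 4.3.3) by quasi-likelihood, with TMM factors, filterByExpr, the group as the sole term and Benjamini-Hochberg adjustment over 15416 genes at 0.05. Standard errors are the size of the log2 fold change divided by the root of F. Alternatives used DESeq2 1.42.0, limma-voom (limma 3.58.1), other factors and filters, the library number as a block and each library left out. Gene positions and exon lengths are from GENCODE M21 (GRCm38). Exon length is the union of exons. Replicates differed beyond sampling noise (chi-square of 39.2 or more for each degree of freedom), so no library was counted as a duplicate.

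The members and lists were chosen with earlier results of these data known. Named are the 10 antagonists, all other antagonists and binding partners, and from each further list the 4 smallest adjusted p and the 2 highest levels without a call. For each antagonist the 3 nearest genes were found. All columns of the table were used.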

Additional observations from a re-analysis of the deposited data

Results flagged for a closer look

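Among the 20 sets of 5 libraries formed by the 10 antagonists and 2 groups, 2 held a library far from the others, where chance gives about 1 in 20. Sfrp2 was at 745 CPM in PSC 5, against 473 to 515 CPM in the other PSC libraries. Sfrp4 was at 476 CPM in PSC 3, against 365 to 394 CPM in the other PSC libraries. Both genes were lower in DDR2-plus with these libraries left out.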

How the results depend on the processing

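Over 18 alternative settings, 9 of the 10 antagonists kept their direction and their call, and Sostdc1 kept its direction and lost its call in 6. The log2 fold changes ranged from -3.00 to -2.55 for Sfrp4, from -2.62 to -2.21 for Sost, from -0.93 to -0.62 for Dkk3 and from 1.77 to 2.14 for Frzb. Those of Dkk2 ranged from -1.25 to -0.83 and those of Sfrp1 from -1.21 to -0.82. With each library left out, 9 to 10 antagonists, 49 to 54 other WNT genes, 96 to 101 marker genes and 5176 to 6020 of all genes were called. The directions of Mesd and Ctnnb1, not called in the first place, reversed with library size alone, to 0.24 and 0.22 on the log2 scale, and the cause was not tested. That setting put the median of all tested genes at 0.31, against 0.04 with TMM factors, and split all calls into 5421 higher and 1538 lower, against 3096 higher and 2926 lower. Deviations of same-numbered libraries from their group means correlated at 0.00653 to 0.0898 over genes, and 3 of 5 DDR2-plus libraries correlated best with the PSC library of their own number. Whether same-numbered libraries share an animal is not stated. The main fit, with the group as the sole term, left any such pairing out. With the number as a replicate block, 10 antagonists and 5742 of all genes were called. Lengths from the longest transcript in place of the union of exons moved no level per kilobase beyond its SD. Antagonists outside the 10 with under 200 counts in all, Dkk4, Dkkl1 and Cer1, had too few counts to be tested.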
